A study of Mus musculus with 4 samples.

Results

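The transcripts of 10 genes of the NRF2 antioxidant pathway were followed in sorted LSK cells, the lineage-negative, SCA-1+ and c-KIT+ bone marrow cells that hold hematopoietic stem and progenitor cells. The genes were taken by symbol: *Nfe2l2*, *Keap1*, *Nqo1*, *Hmox1*, *Gclc*, *Gclm*, *Txnrd1*, *Srxn1*, *Gsr* and *Gpx1*. All 10 were among the 18598 genes listed in the table, and all 10 were among the 14858 genes that averaged 10 or more normalised counts over the 4 libraries and were tested. RNA-seq was compared between 2 libraries of *Bptf* cKO mice, which carried floxed *Bptf* on both alleles together with *Mx1*-cre, and 2 libraries of *Bptf* f/f littermates, which the labels call control. The mice were of the C57BL/6 strain and about 3 months old, the cells of 5 mice were pooled for each library, and LSK cells were sorted 10 days after cre induction with polyinosinic-polycytidylic acid (pIpC). pIpC acts through interferon, the *Mx1* promoter that drives cre responds to interferon, and the *Bptf* f/f mice carried no cre, so loss of BPTF and the presence of active cre cannot be told apart. BPTF is the largest subunit of the chromatin remodeler NURF.

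NRF2, the product of *Nfe2l2*, is a transcription factor that binds antioxidant response elements together with a small MAF protein. In resting cells KEAP1 hands NRF2 to a CUL3 ubiquitin ligase for destruction, and oxidants or electrophiles modify cysteines of KEAP1 so that NRF2 accumulates. Activation is therefore mainly a matter of protein stability, and it is read at the RNA level from the target genes, which make and recycle glutathione, supply thioredoxin with electrons and detoxify quinones and heme.

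*Bptf* itself was lower in both *Bptf* cKO libraries, at 3398 and 3320 normalised counts against 5520 and 5850 in *Bptf* f/f (log2 fold change -0.76, limma adjusted p = 0.0439). *Kit* and *Ly6a*, which encode the sorted markers c-KIT and SCA-1, had at least 13634 and 726 normalised counts in every library. Of 9 LSK markers, 8 had a negative log2 fold change, the median was -0.60, and 1 passed the test as lower in *Bptf* cKO. That list summed to 61307 and 54327 in *Bptf* f/f against 46851 and 44721 in *Bptf* cKO. The 7 B cell markers, of which 0 passed, summed to 9432 and 2363 against 5240 and 3046. Of 7 T and NK cell markers 5 were not listed in the table. The recovered reads on listed genes ran from 14091054 to 30134742 per library. Replicate 2 of both genotypes held transcripts of pluripotent cells, with 933 and 1182 normalised counts summed over 7 genes such as *Pou5f1* against 3.88 and 5.85 in replicate 1, so differences within each replicate pair are given below for each of the 10 genes. *Ly6a*, *Pou5f1*, *Ptgr1* and the macrophage genes below were named after their values were seen, except *Cd163*. Of 10 neutrophil and granule markers 0 passed the test, and the list summed to 83257 in replicate 1 and 13830.5 in replicate 2 of *Bptf* f/f, and to 60308 and 50006.5 in those of *Bptf* cKO. Of the 10 erythroid markers tested, 1 passed the limma test, *Epor*, which was lower in *Bptf* cKO. All 10 had a negative log2 fold change, with a median of -2.07, and DESeq2 called 5 lower and 0 higher. Over all genes DESeq2 called 3.36% lower and 2.18% higher. The erythroid list summed to 3541 and 2539 in *Bptf* f/f against 523 and 687 in *Bptf* cKO.

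None of the 10 NRF2 pathway genes passed an adjusted p of 0.05 in either direction in limma. Over all tested genes 0.37% passed as higher in *Bptf* cKO and 0.37% as lower, 55 genes each way. At an unadjusted p under 0.05, 0 of the 10 genes were higher and 1, *Srxn1*, was lower, beside 6.79% and 8.96% of all tested genes, so that 1 in 10 was near the background. edgeR and DESeq2 on the recovered reads, without a replicate block, also called none of the 10. The median log2 fold change of the 10 genes was -0.061, beside 0.0010 over all tested genes, and the median of its absolute value was 0.12 against 0.21 over all tested genes. The 95% interval of the change stayed within 1.5-fold in either direction for 7 of the 10 genes, compared with 39.2% of all tested genes. It was wider for *Nqo1*, *Hmox1* and *Srxn1*, which had the lowest means of the 10, at 203, 232 and 269 normalised counts. The other 7 averaged at least 1494, whereas the tested genes averaged 10 or more. Neither this share nor the median absolute change was compared at a matched level. The plot of each gene's normalised counts by library shows these values together.

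**Figure D1:**
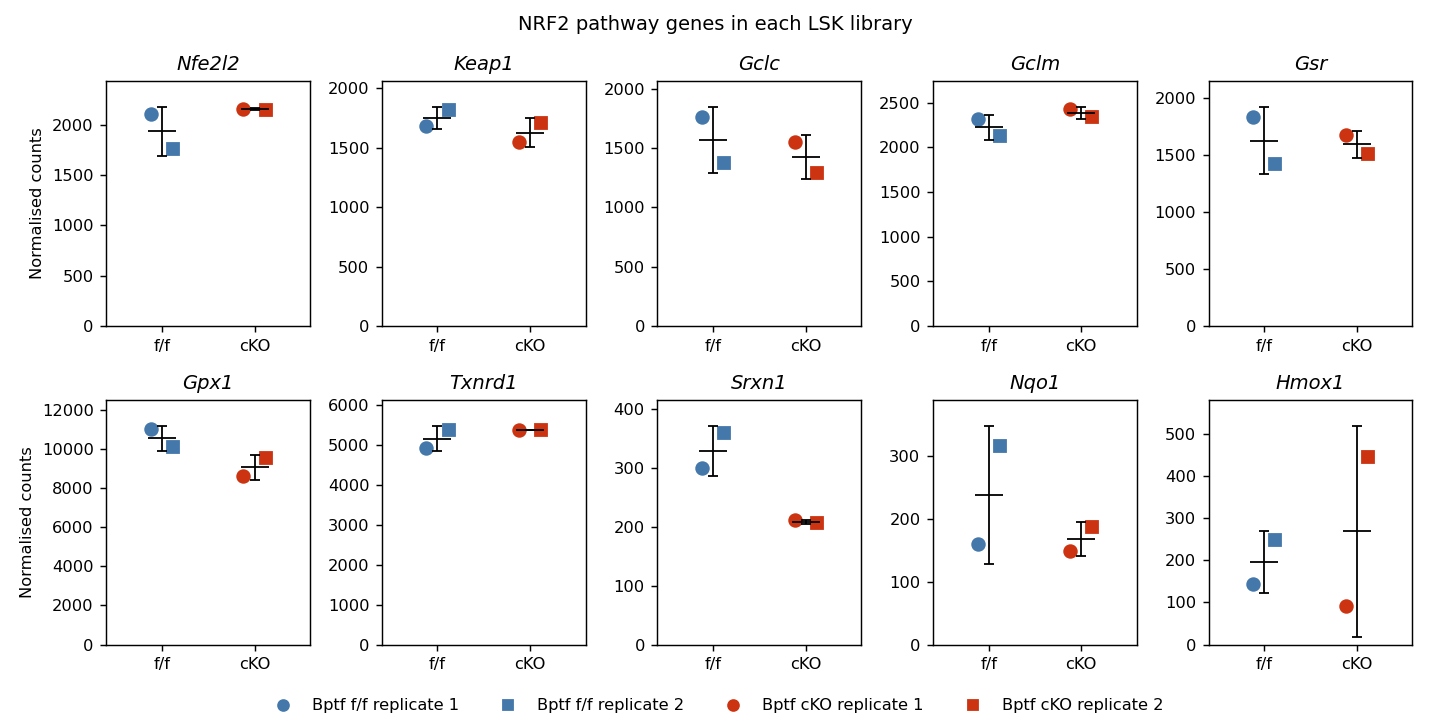
Normalised counts (y axis, from 0) of the 10 genes in Bptf f/f and Bptf cKO LSK cells (x axis). Circles are replicate 1 and squares replicate 2 libraries, and the bar with whiskers is the mean and SD of 2 libraries. The groups are apart for Nfe2l2 and Gclm (higher in Bptf cKO) and for Srxn1 and Gpx1 (lower), and Hmox1 ranges from 91.6 to 446 within Bptf cKO.

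Both *Bptf* cKO libraries lay above both *Bptf* f/f libraries for 2 of the 10 genes, *Nfe2l2* and *Gclm*, and 23.2% of all tested genes did so. For *Srxn1* and *Gpx1*, 2 of the 10, both lay below, as they did for 23.8% of all tested genes. The share of non-overlapping genes among the 10 was thus near that of the whole table.

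Promoter sequences show which of these genes carry the letters of the relevant binding sites close to their start. RefSeq windows on GRCm38.p6, from 250 bases before to 50 bases after an annotated start, were matched by symbol for 7 of the 10 genes, with *Hmox1*, *Gclc* and *Gsr* unmatched. Searched on both strands, the antioxidant response element core TGACNNNGC lay in windows of *Nfe2l2*, *Gclm*, *Txnrd1* and *Srxn1*, 4 of 9 windows of the 7 genes, and in 12.4% of all 32851 windows. The AP1 element TGANTCA shares its TGA start with that core and lay in 7.81% of all windows. Among the 7 genes it lay in the *Srxn1* window alone, at 102 and 45 bases before the start. At 45 bases the letters run on to TGAGTCAGC, which departs from the antioxidant core only in the G that follows TGA. The search for that core did not count it, and the core match of the *Srxn1* window, GCTAGGTCA, lay 29 bases after the start. No window of the 7 genes held the C/EBP-ATF composite element TGATGNAA, which 3.97% of all windows held. Among the 3 genes of the other pathway lists that passed the test, described further on, the windows of *Slc7a11* and *Chac1* held the C/EBP-ATF letters and that of *Slc3a2* held none of the 3 sets of letters, while the window of *Ptgr1*, which did not pass, held the C/EBP-ATF letters too. Of 3 *Txnrd1* windows 1 held the antioxidant core. Matches of letters describe the window and were not tested as binding sites. Sequence outside the windows was not searched, so a gene without a match may still hold an element farther away. The stretches printed here are those of the genes that the results turn on, with matched letters in capitals and 5′ to 3′ along the gene's strand. They are chr2:152105402-152105505 (plus strand) for *Srxn1*, chr2:75704875-75704913 (minus) for *Nfe2l2*, chr3:122245403-122245451 (plus) for *Gclm*, chr10:82859094-82859142 (plus) for *Txnrd1*, and, for the cystine transporter and glutathione-degrading genes described further on, chr3:50443633-50443699 (minus) for *Slc7a11* and chr2:119351029-119351076 (plus) for *Chac1*.
Srxn1, AP1 letters: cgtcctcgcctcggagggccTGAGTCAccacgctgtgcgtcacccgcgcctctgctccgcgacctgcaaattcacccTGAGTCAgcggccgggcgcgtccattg
Nfe2l2, antioxidant core: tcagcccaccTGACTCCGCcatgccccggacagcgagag
Gclm, antioxidant core: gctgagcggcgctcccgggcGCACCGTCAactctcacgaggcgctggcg
Txnrd1, antioxidant core: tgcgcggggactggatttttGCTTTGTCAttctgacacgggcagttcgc
Slc7a11, C/EBP-ATF letters: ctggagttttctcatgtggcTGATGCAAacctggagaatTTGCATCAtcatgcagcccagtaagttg
Chac1, C/EBP-ATF letters: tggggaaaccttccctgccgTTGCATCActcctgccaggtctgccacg

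The transcription factor and its inhibitor both had at least 1213 reads in every library, and neither passed the test. *Nfe2l2* (chromosome 2, 75675513 to 75704641, minus strand, GRCm38) had 2103 normalised counts in replicate 1 and 1763 in replicate 2 of *Bptf* f/f, and 2160 and 2147 in the *Bptf* cKO replicates. The *Bptf* cKO libraries were close together and just above the higher *Bptf* f/f library, while those of *Bptf* f/f were 1.19-fold apart. The log2 fold change of *Nfe2l2* was 0.16 (standard error 0.12, 95% interval -0.14 to 0.47, limma adjusted p = 0.590), and within replicate pairs 1 and 2 it was 0.039 and 0.28. *Keap1* (chromosome 9, 21229730 to 21239361, minus strand) had 1683 and 1813 normalised counts in *Bptf* f/f and 1544 and 1711 in *Bptf* cKO, and the groups overlapped. Its log2 fold change was -0.10 (standard error 0.11, 95% interval -0.38 to 0.17, limma adjusted p = 0.719), with -0.12 and -0.083 within the pairs. Reads of *Keap1* and of the antisense gene Gm16754, which spans an exon of it, cannot be told apart without the strand setting, which is not given in the sources used here.

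Glutathione synthesis starts with glutamate-cysteine ligase, whose catalytic subunit is encoded by *Gclc* and whose modifier subunit by *Gclm*. *Gclc* (chromosome 9, 77754535 to 77794485, plus strand) had 1762 and 1372 normalised counts in *Bptf* f/f and 1551 and 1292 in *Bptf* cKO, and in both genotypes replicate 1 was the higher library. The difference between replicates therefore exceeded that between genotypes, with a log2 fold change of -0.13 (standard error 0.17, 95% interval -0.56 to 0.29, limma adjusted p = 0.767) and pair differences of -0.18 and -0.086. *Gclm* (chromosome 3, 122245557 to 122270732, plus strand) had 2323 and 2123 normalised counts in *Bptf* f/f and 2430 and 2337 in *Bptf* cKO. The *Bptf* cKO libraries of *Gclm* lay just above those of *Bptf* f/f, with log2 differences of 0.065 and 0.14 within replicate pairs 1 and 2, and the log2 fold change was 0.10 (standard error 0.100, 95% interval -0.15 to 0.35, limma adjusted p = 0.695). The changes of the 2 subunit genes thus differed in sign, with both intervals including 0. The ratio of *Gclm* to *Gclc* normalised counts was 1.32 and 1.55 in *Bptf* f/f and 1.57 and 1.81 in *Bptf* cKO. Exons of *Gclm* overlap a transcript on the opposite strand, Gm17494, and a processed pseudogene on the same strand, Gm6061.

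Glutathione is used and regenerated by the enzymes of the next pair of genes. *Gsr*, which encodes glutathione reductase (chromosome 8, 33652523 to 33698163, plus strand), had 1835 and 1419 normalised counts in *Bptf* f/f and 1681 and 1510 in *Bptf* cKO, with both *Bptf* cKO libraries between the *Bptf* f/f libraries. Its log2 fold change was -0.019 (standard error 0.16, 95% interval -0.41 to 0.37, limma adjusted p = 0.973), the replicate pairs had opposite signs at -0.13 and 0.089, and the sign turned to 0.033 when libraries were recentred on their medians. *Gpx1* encodes glutathione peroxidase 1, the abundant cytosolic selenoenzyme that reduces hydrogen peroxide (chromosome 9, 108338903 to 108340343, plus strand). It had 11009.8 and 10102 normalised counts in *Bptf* f/f and 8626 and 9535 in *Bptf* cKO, so that both *Bptf* cKO libraries were below both *Bptf* f/f libraries. The log2 fold change of *Gpx1* was -0.22 (standard error 0.10, 95% interval -0.48 to 0.044, limma adjusted p = 0.400), and within replicate pairs 1 and 2 it was -0.35 and -0.083. The erythroid marker sum given above was also lower in both *Bptf* cKO libraries, and its part in the *Gpx1* values was not tested.

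*Txnrd1* encodes cytosolic thioredoxin reductase, a selenoenzyme that passes electrons from NADPH to thioredoxin (chromosome 10, 82833951 to 82897712, plus strand). It had 4938 and 5390 normalised counts in *Bptf* f/f and 5374 and 5383 in *Bptf* cKO. The *Bptf* cKO libraries nearly coincided with each other and with *Bptf* f/f replicate 2, and only *Bptf* f/f replicate 1 was lower. Of the intervals of the 10 genes that of *Txnrd1* was the narrowest, with a log2 fold change of 0.060 (standard error 0.093, 95% interval -0.18 to 0.30, limma adjusted p = 0.824) that turned to -0.0085 after quantile normalisation. The pair of replicate 1 differed by 0.12 and that of replicate 2 by -0.0019.

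*Srxn1* encodes sulfiredoxin, which repairs overoxidised peroxiredoxins (chromosome 2, 152105516 to 152111376, plus strand), and it had the largest difference of the 10 genes. It had 299 and 359 normalised counts in *Bptf* f/f and 211 and 206 in *Bptf* cKO, from at least 146 reads in a library. Both *Bptf* cKO libraries were below both *Bptf* f/f libraries, and the gap was larger than the spread within either group. The log2 fold change of -0.65 (standard error 0.18, 95% interval -1.11 to -0.19, limma adjusted p = 0.198) did not pass over all genes, where 7.19% of the tested genes had an unadjusted p as small or smaller. Replicate pairs 1 and 2 differed by -0.50 and -0.80, and DESeq2 gave an adjusted p of 0.146. The immediate-early genes, which include the AP1 genes *Fos* and *Jun*, were also lower in *Bptf* cKO as a sum, with 82011 and 185258 normalised counts over 14 genes in *Bptf* f/f and 29169 and 32653 in *Bptf* cKO. Of these 14 genes 1, *Zfp36*, passed the limma test, and it was lower in *Bptf* cKO. DESeq2 called 9 of the 14 lower and 0 higher, *Fos* and *Jun* among them (DESeq2 adjusted p = 2.07e-04 and 0.00270). Over all genes DESeq2 called 3.36% lower. The part of AP1 in the *Srxn1* values was not tested.

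**Figure D2:**
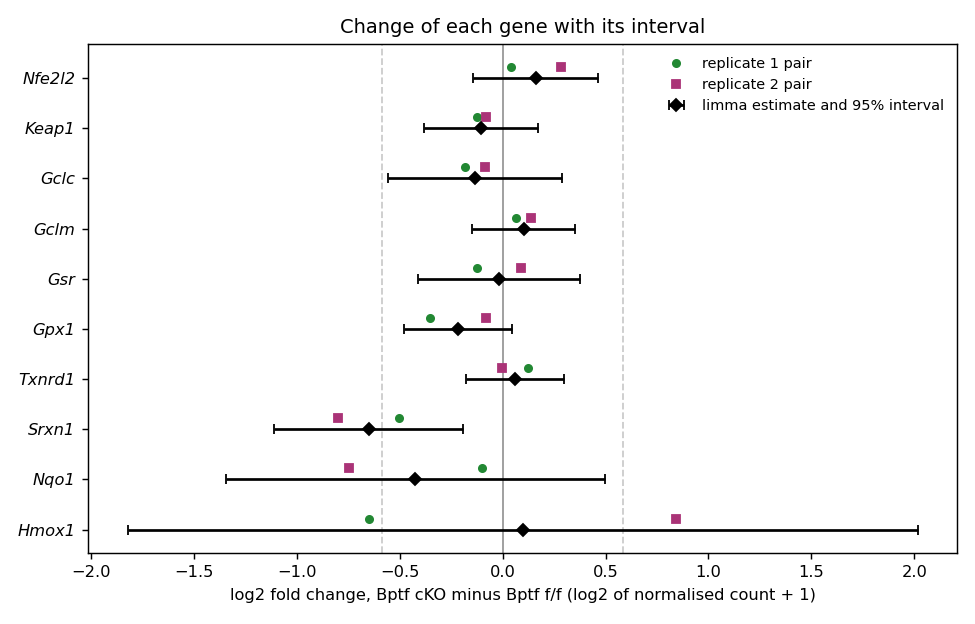
Log2 fold change between the genotypes in LSK cells (x axis, positive where higher in Bptf cKO, log2 of the normalised count plus 1) for the 10 genes (y axis). Diamonds with whiskers are the limma estimate and its 95% interval, circles and squares the replicate 1 and replicate 2 pairs, and dashed lines a change of 1.5-fold. The interval of Srxn1, not adjusted for the number of genes, runs from -1.11 to -0.19, those of the other 9 genes include 0, and the Hmox1 pairs lie at -0.65 and 0.84.

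The remaining targets, *Nqo1* and *Hmox1*, were low and varied between libraries of 1 genotype. *Nqo1* encodes NAD(P)H quinone dehydrogenase 1, a classical NRF2 target that reduces quinones (chromosome 8, 107388225 to 107403206, minus strand). It had 160 and 316 normalised counts in *Bptf* f/f and 149 and 188 in *Bptf* cKO, and *Bptf* f/f replicate 2 was the library that stood apart, at 1.97 times the level of replicate 1. The log2 fold change was -0.43 (standard error 0.36, 95% interval -1.35 to 0.50, limma adjusted p = 0.644), and the pairs of replicates 1 and 2 gave -0.10 and -0.75. Without *Bptf* f/f replicate 2 the log2 fold change of *Nqo1* was 0.062. In that library the 14 immediate-early genes also had their highest sum, 185258 normalised counts, and their part in the *Nqo1* value was not tested.

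*Hmox1* encodes the inducible heme oxygenase, which breaks down heme and is abundant in macrophages (chromosome 8, 75093621 to 75100589, plus strand). It had 144 and 248 normalised counts in *Bptf* f/f and 91.6 and 446 in *Bptf* cKO, so that the *Bptf* cKO libraries held both the lowest and the highest value and differed from each other by 4.87-fold. The log2 fold change of 0.098 (standard error 0.76, 95% interval -1.82 to 2.02, limma adjusted p = 0.972) thus averaged -0.65 and 0.84 of replicate pairs 1 and 2, and it was -1.04 without *Bptf* cKO replicate 2. At this spread neither a fall nor a rise of 3-fold in *Hmox1* was outside the interval.

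Of the 10 macrophage markers listed, 4 had their lowest and highest values in the same libraries as *Hmox1*, namely *Adgre1* and the genes of the complement C1q chains, *C1qa*, *C1qb* and *C1qc*. Together the C1q genes summed to 86.8 and 140.0 normalised counts in *Bptf* f/f and to 50.7 and 483 in *Bptf* cKO, and the macrophage surface marker *Adgre1* had 26.4 and 37.4 against 13.0 and 67.7. The other 6 did not share that order. *Csf1r*, the receptor gene for macrophage growth factor, was highest in *Bptf* f/f replicate 1, with 598 and 137 in *Bptf* f/f and 101 and 155 in *Bptf* cKO. The scavenger receptor gene *Cd163* had 598 and 498 against 705 and 717 (limma adjusted p = 0.304), and the lysosomal marker *Cd68* 483 and 358 against 380.2 and 399. Over the whole macrophage list 10 of 11 genes were present in the table, none at 0 in any library, 0 of 10 passed the test, and the sum ranged from 1416 to 1935 in *Bptf* f/f and from 1443 to 2118 in *Bptf* cKO. The part of macrophage RNA in the *Hmox1* values was not tested, and in bulk samples more cells of a type and more RNA per cell cannot be told apart.

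**Figure D3:**
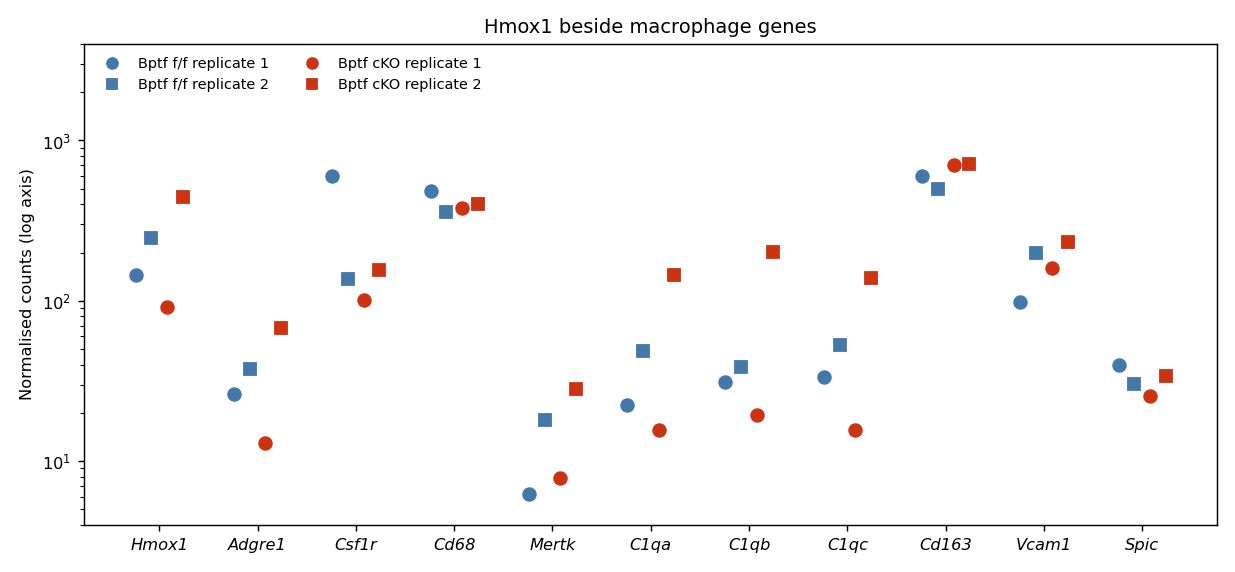
Normalised counts (y axis, log scale) of Hmox1 and the 10 listed macrophage markers (x axis) in each library, with Bptf f/f in blue, Bptf cKO in red, circles for replicate 1 and squares for replicate 2. Hmox1, the C1q genes and Adgre1 are lowest in Bptf cKO replicate 1 and highest in Bptf cKO replicate 2, and the other 6 markers have another order, such as Csf1r, which is highest in Bptf f/f replicate 1.

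Levels of the 10 genes were compared with each other per kilobase of merged GENCODE vM21 exons, because longer transcripts yield more reads. In *Bptf* f/f, *Gpx1* was the highest at 7640 and 7011 normalised counts per kilobase in replicates 1 and 2. *Txnrd1* followed at 697 and 761, and then *Gsr* at 666 and 515, which did not overlap with it. The order continued with *Nfe2l2*, *Gclc*, *Keap1* and *Gclm*, at means of 509, 416, 372 and 353, and from *Gsr* to *Gclm* each gene overlapped with the next over the 2 libraries. *Nqo1*, *Srxn1* and *Hmox1* came last at means of 153, 117 and 112, below *Gclm* in both libraries and overlapping with each other. In *Bptf* cKO the means per kilobase ran from 6301 for *Gpx1* down to 73.9 for *Srxn1*.

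Other genes of the pathway were described from lists written by role, 104 genes in all, of which 95 were tested. The lists were written with earlier results of these data known, so the share that passed does not test the pathway. Of these 95 genes, 3 passed the limma test as higher in *Bptf* cKO, *Slc7a11*, *Slc3a2* and *Chac1*, and 0 passed as lower, beside the 0.37% of all tested genes in each direction. At an unadjusted p under 0.05, 7 of the 95 were higher and 15 lower, where all tested genes gave 6.79% and 8.96%. DESeq2 called 5 higher and 5 lower, and of the 14569 genes to which it gave an adjusted p it called 2.18% higher and 3.36% lower. The median log2 fold change of the 95 genes was -0.053, beside 0.0010 over all tested genes. All 3 genes that passed belong to the glutathione list, though *Slc3a2* also serves amino acid transporters other than the cystine exchanger.

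*Slc7a11* encodes xCT, the cystine-glutamate exchanger that supplies cysteine for glutathione and is a target of both NRF2 and ATF4. It went from 15.5 and 19.4 normalised counts in *Bptf* f/f to 385 and 467 in *Bptf* cKO, from at least 14 reads in a library. The rise of *Slc7a11* was 4.53 on the log2 scale (standard error 0.28, limma adjusted p = 0.0118) and nearly the same in the replicate pairs, at 4.55 and 4.52. *Slc3a2*, which encodes the heavy chain that xCT shares with other amino acid transporters, had 3090 and 3622 normalised counts in *Bptf* f/f and 7962 and 8303 in *Bptf* cKO (log2 fold change 1.28, standard error 0.11, limma adjusted p = 0.0226, pairs 1.37 and 1.20). *Chac1* encodes an enzyme that degrades glutathione, and it had 10.1 and 20.8 normalised counts in *Bptf* f/f and 228 and 178 in *Bptf* cKO. With 13 or more reads in every library, it rose by 3.70 on the log2 scale (standard error 0.43, limma adjusted p = 0.0430, pairs 4.37 and 3.04). Each of these 3 genes was apart between the groups by more than the spread within them, and 0 of the 3 passed when either *Bptf* cKO library was left out.

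Along the same route the ligase, synthase and reductase genes did not pass the test. *Gclc* and *Gclm* are given above, and *Gss*, which encodes glutathione synthetase, had 398 and 489 normalised counts in *Bptf* f/f against 461 and 545 in *Bptf* cKO (log2 fold change 0.18, 95% interval -0.26 to 0.63, limma adjusted p = 0.686). *Gpx4*, the peroxidase of lipid hydroperoxides, had between 1239 and 1299 in all 4 libraries (95% interval of the log2 fold change -0.26 to 0.26). *Chac2*, the relative of *Chac1*, had 56.6 and 74.8 in *Bptf* f/f and 58.5 and 63.5 in *Bptf* cKO. *Gss*, *Gpx4* and *Chac2* were named after their values were seen.

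**Figure D4:**
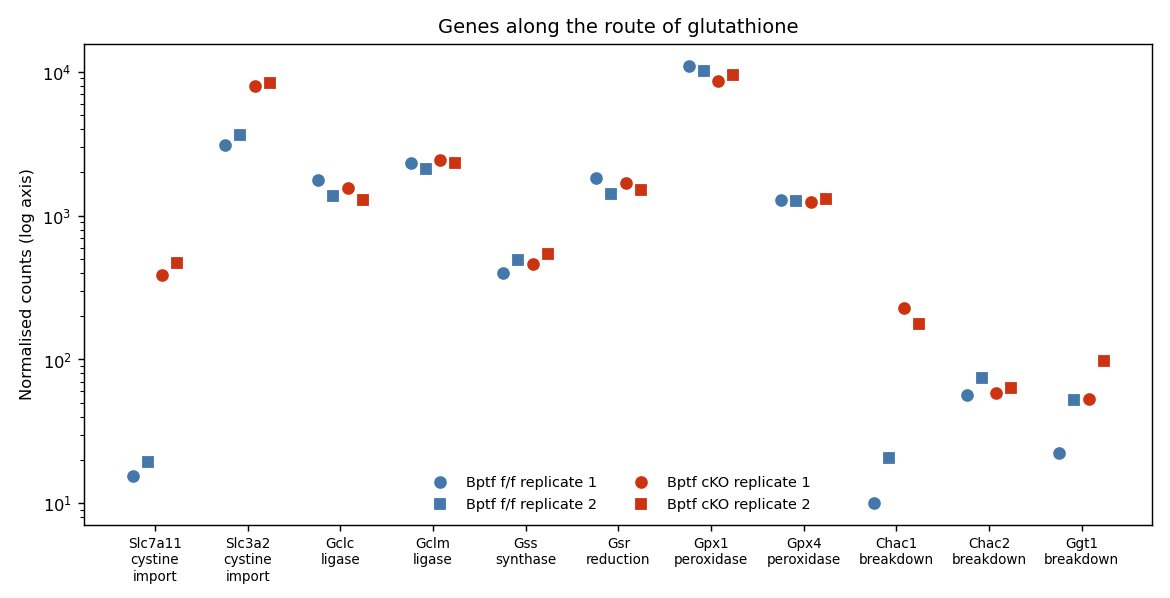
Normalised counts (y axis, log scale) of genes that import cystine for glutathione, make it, reduce it, use it and break it down (x axis) in each library, with Bptf f/f in blue, Bptf cKO in red, circles for replicate 1 and squares for replicate 2. Slc7a11, Slc3a2 and Chac1 are higher in both Bptf cKO libraries, and Gclc, Gclm, Gss, Gsr and Gpx4 lie at about the same height in all 4. Slc3a2, placed under cystine import, is shared with other amino acid transporters.

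The remaining 29 tested genes of the glutathione list did not pass. Among them the 15 glutathione S-transferase and microsomal transferase genes, which conjugate glutathione to electrophiles, had a median log2 fold change of -0.36, with 5 positive and 10 negative and with 0 called in limma. *Gsta4*, an alpha-class transferase for lipid aldehydes, had 142 and 241 normalised counts in *Bptf* f/f and 53.9 and 52.2 in *Bptf* cKO (log2 fold change -1.78, standard error 0.33, limma adjusted p = 0.0964, DESeq2 adjusted p = 0.00126). *Gstm5* had 346 and 333 against 189.8 and 198 (log2 fold change -0.81, limma adjusted p = 0.117, DESeq2 adjusted p = 0.0240), and *Mgst1* had 322 and 244 against 181 and 143 (-0.80, limma adjusted p = 0.219). *Ggt5*, a gamma-glutamyltransferase gene of the same list, had 774 and 518 against 385 and 288 (-0.92, limma adjusted p = 0.196, DESeq2 adjusted p = 0.0347). *Gstm1*, the mu-class gene with the highest mean of the 4 listed, was 1483 and 1149 against 1538 and 1735. Reads of the *Gstm* genes can be shared among near-identical copies, so the values of single members are uncertain. *Gstm1* was named after its values were seen.

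In the list of thioredoxin and peroxiredoxin genes 0 of 15 passed in limma, and the median log2 fold change was -0.057. The methionine sulfoxide reductases *Msrb2* and *Msrb3*, which repair oxidised methionine, lay furthest from 0. *Msrb2* had 579 and 572 normalised counts in *Bptf* f/f and 236 and 268 in *Bptf* cKO (log2 fold change -1.19, standard error 0.15, limma adjusted p = 0.0524, DESeq2 adjusted p = 3.74e-06). *Msrb3* had 320.1 and 255 against 69.5 and 39.5 (-2.42, standard error 0.34, limma adjusted p = 0.0620, DESeq2 adjusted p = 5.01e-07). The differences of both genes were larger than the spread within the groups, and DESeq2 called both while limma called neither. *Txnrd2*, the mitochondrial thioredoxin reductase gene, had 583 and 614 against 770.2 and 862 (0.45, limma adjusted p = 0.207), and *Prdx1*, a peroxiredoxin gene, 3300 and 4355 against 2834 and 3132 (-0.35, limma adjusted p = 0.376).

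Among 17 other regulators none passed in limma. *Nfe2l1*, which encodes the NRF2 relative NRF1, a factor known for the control of proteasome genes, had 2825 and 3046 normalised counts in *Bptf* f/f against 4240.1 and 4608 in *Bptf* cKO. The log2 fold change of *Nfe2l1* was 0.59 (standard error 0.100, limma adjusted p = 0.0825, DESeq2 adjusted p = 5.89e-04), at 0.59 and 0.60 in the replicate pairs. *Nfe2*, the erythroid and megakaryocytic member of this factor family, had 5973 and 5581 against 4619 and 4865 (-0.28, limma adjusted p = 0.252). *Bach1*, the repressor that competes with NRF2 at antioxidant response elements, had 1404 and 1343 against 1367 and 1347, and *Cul3*, the ligase partner of KEAP1, 3757 and 4152 against 4086 and 3970.4. *Btrc* and *Pgam5* had log2 fold changes of -0.37 and 0.30 (limma adjusted p = 0.284 and 0.453). *Bach1* and *Cul3* were named after their values were seen.

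The other lists held no gene that passed in limma either. Of 8 genes of NADPH supply, *Nadk*, which encodes NAD kinase, had 2521 and 2313 normalised counts in *Bptf* f/f and 3265 and 3491 in *Bptf* cKO (log2 fold change 0.48, limma adjusted p = 0.118, DESeq2 adjusted p = 0.0120), and *Idh1* had 719 and 575 against 411 and 477 (-0.54, limma adjusted p = 0.247). *Tkt*, the pentose phosphate transketolase gene, was 16233 and 15782 against 17035 and 17899. The 4 tested genes of superoxide and peroxide removal had log2 fold changes from -0.22 to 0.14, with *Cat*, the catalase gene, at 3276 and 3139 against 2825 and 2808 (limma adjusted p = 0.402) and *Sod2* and *Ccs* at log2 fold changes of -0.22 and -0.12 (limma adjusted p = 0.505 and 0.727). In the heme, iron and quinone list of 7 genes, *Nqo2* had 512 and 468 against 354 and 354 (-0.47, limma adjusted p = 0.227) and *Blvrb*, a biliverdin reductase gene, 525 and 334 against 222 and 286 (-0.73, limma adjusted p = 0.299). Among 12 other NRF2 targets *Osgin1* had 173 and 262 against 92.3 and 148 (-0.86, limma adjusted p = 0.318), and *Abcc5* and *Abcc4*, which encode efflux pumps, had log2 fold changes of 0.42 and 0.28 (limma adjusted p = 0.275 and 0.320). *Cbr1*, a carbonyl reductase gene, was at -0.30 (limma adjusted p = 0.320).

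**Figure D5:**
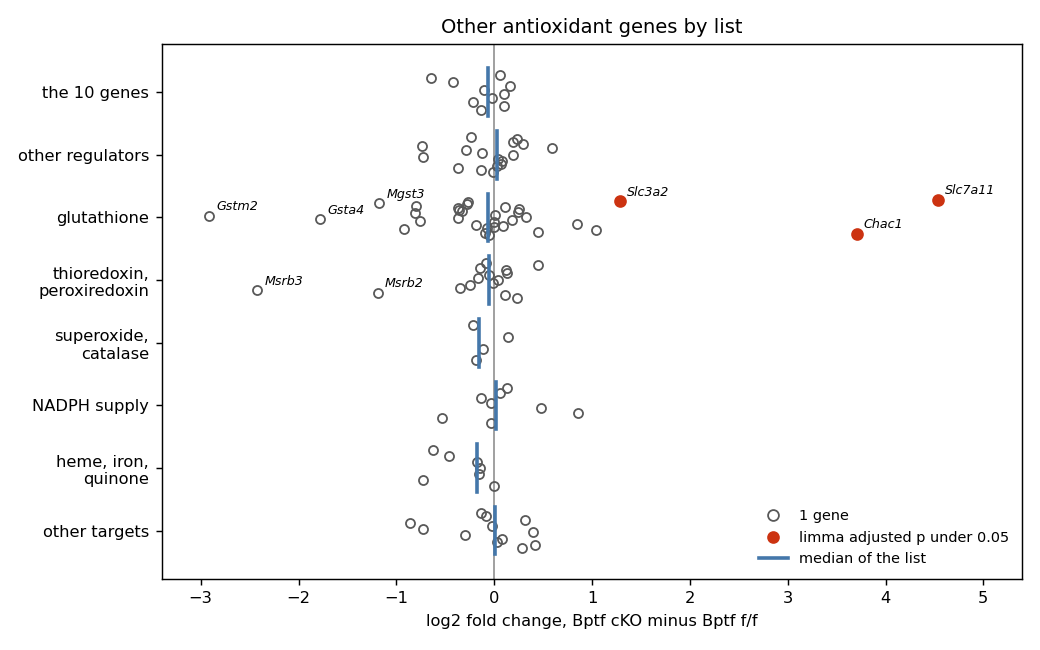
Log2 fold change (x axis, positive where higher in Bptf cKO) for each tested gene of the 10 and of 7 lists by role (y axis). Open circles are genes, filled red circles genes that limma called at an adjusted p of 0.05, and blue bars the median of each list. Slc7a11, Chac1 and Slc3a2 are the filled points, and the medians lie between -0.18 and 0.028.

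These comparisons rest on 2 libraries per genotype, for which an exact two-sided permutation test of 1 gene cannot give a p below 0.333, and nothing in the labels ties a replicate number to a shared batch. A missed threshold at this size does not show that a transcript was level, and the 95% intervals above give the changes that stayed possible.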

How the data were processed

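The authors deposited 1 table of normalised signal, in which the counts of each library had been divided by its size factor, and the values for the 4 libraries were used here. Columns of the authors' own comparison (fold change, its error, a test statistic and p-values) were not used. The submitters' processing notes name HISAT2, featureCounts and DESeq2 and the builds GRCm38 and mm10, while versions, annotation and strand setting are not given in the sources used here. Groups and replicate numbers came from the sample labels. Dividing each library by its lowest value above 0 gave whole reads for 100% of values (tolerance 0.01 read). Listed genes had at least 11 reads over the 4 libraries.

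Values were compared as log2 (normalised count + 1), a scale on which changes of low genes are understated, with limma 3.58.1 in R 4.3.3 (trended variance, a single genotype term, two-sided, Benjamini-Hochberg adjustment over 14858 genes averaging 10 or more). Each library was a separate pool of mice, and p-values measure the spread between these pools. The 10 genes had at least 133 reads in every library. edgeR 4.0.16 (quasi-likelihood test, TMM) and DESeq2 1.42.0 (Wald test) were run on the recovered reads as alternatives. Further settings were a pseudocount of 0.5 or 10, testing all listed genes or those averaging 50 or more, median recentring, quantile normalisation, no trend, a replicate block, an adjusted p under 0.01 and each library left out. The replicate pairs taken alone, with no test, were added after the data were seen. The fits were tested on simulated data. Positions and exon lengths came from GENCODE vM21 (GRCm38), and promoter windows from RefSeq (GRCm38.p6).

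The 10 genes and all gene lists were chosen with earlier results of these data known. Beside the 10 genes, *Bptf* and *Kit*, the rule for naming took from each list genes with a limma adjusted p under 0.05 and up to 4 others with the largest change among those with a mean of at least 100 and groups that do not overlap. Genes outside this rule are said to be named after their values were seen. Genes that this rule gives from the lists of stress genes and cell markers are mostly given as sums. Python 3.11.15, pandas 2.3.3 and matplotlib 3.10.9 made the summaries and plots.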

Additional observations from a re-analysis of the deposited data

How the results depend on the processing

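Over 17 alternatives, 159 of 170 log2 fold changes of the 10 genes kept their direction and their side of the threshold, 9 changed direction without passing it, and 2 passed it. Those 2 were *Srxn1* with the replicate block in limma (adjusted p = 0.0274) and in edgeR. With that block 1242 of the 14858 tested genes passed as lower in limma and 1229 in edgeR. The direction of *Nfe2l2*, *Keap1*, *Gclm*, *Srxn1* and *Gpx1* was the same under each alternative. *Txnrd1* was at -0.0085 after quantile normalisation and *Gsr* at 0.033 after recentring on medians. Leaving out each library in turn gave ranges that cross 0 for *Nqo1* (-0.91 to 0.062), *Hmox1* (-1.04 to 1.23), *Gclc* (-0.32 to 0.045), *Txnrd1* (-0.0031 to 0.12) and *Gsr* (-0.20 to 0.17).

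The count of all genes higher in *Bptf* cKO, 55, and lower, 55, became 2 and 0 without the trend, 5 and 2 at an adjusted p under 0.01, 318 and 490 with DESeq2, and from 1 to 76 higher and from 0 to 41 lower with a library left out. The lowest of these counts came without either *Bptf* cKO library (1 higher and 0 lower each), and without *Bptf* f/f replicate 2 there were 17 lower. With the replicate block the counts were 896 and 1242 in limma, 891 and 1229 in edgeR and 382 and 560 in DESeq2. Of the 10 genes, 0 were higher and 1 lower in limma and in edgeR with the block, beside those counts out of 14858 tested genes. Of the 95 other pathway genes tested, 3 higher and 0 lower became 7 and 14 with the block in limma and 8 and 12 in edgeR with it. The counts were 5 and 5 in DESeq2 with and without the block. They were 0 higher without the trend and at an adjusted p under 0.01, and 1 lower without a filter. With a library left out, from 0 to 3 were higher, and the 0 came without either *Bptf* cKO library. The cause of these moves was not tested. Same-numbered libraries deviated together from their group means (correlation 0.452 across 14858 genes, which are not independent replicates), but nothing in the labels says what a number shares, so the block stands here only. Where a library was left out, the lone library of its group was assumed to vary like the other group. Each of the 10 genes had at least 133 reads in a library.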
